A study of Mus musculus with 4 samples.

Results

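Chemokines are the secreted attractants that fibroblasts use to call leukocytes into a tissue, and 10 chemokine genes were followed here in mouse embryonic fibroblasts (MEFs) with and without Ip6k1. The genes Ccl2, Ccl7, Ccl8, Ccl17, Ccl20, Cxcl1, Cxcl5, Cxcl10, Cxcl12 and Cx3cl1 were chosen by name, with earlier results of these data known. Every probe on the array that carries one of these gene names was used. They are 10 of the 27827 gene names on the array and have 13 of its 41174 probes. The study asked how gene expression differs in cells that lack IP6K1, the kinase that turns inositol hexakisphosphate into an inositol pyrophosphate. The groups were 2 Ip6k1+/+ and 2 Ip6k1-/- MEF lines, each grown from a separate E14 embryo of 1 litter of heterozygous parents. Lines of both genotypes carry SV40 large T antigen, which immortalised them, and all were thawed, passaged 2 times and collected while growing exponentially with no stimulus named. Cy3-labelled RNA of each line went onto 1 Agilent array that covers the mouse genome, with the 4 arrays on 1 slide. A difference between genotypes is therefore measured over 2 lines each and cannot be told apart from other differences between these lines.

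Chemokines are grouped by the spacing of their first cysteines into the CC, CXC and CX3C families, and they act on G protein-coupled receptors carried mostly by leukocytes. Fibroblasts are a known source of the monocyte attractants Ccl2 and Ccl7, of the neutrophil attractants Cxcl1 and Cxcl5 and of the lymphocyte and stem cell attractant Cxcl12. Several of these genes are known targets of NF-kB, the transcription factor that Toll-like and interleukin-1 receptors activate, while Cxcl10 is best known as an interferon-induced gene.

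All values below are log2 of the background-corrected signal after subtraction of the 75th percentile of the array, so that 0 marks that percentile. They compare lines for 1 probe, never 1 probe with another. The deleted gene followed the labels. Ip6k1 stood at 0.35 and 0.39 in the Ip6k1+/+ lines on probe A_51_P213766, which neither Ip6k1-/- line raised well above background, so that it was at least 34.0-fold higher in Ip6k1+/+ lines on that probe (limma adjusted p = 0.0356). A second probe gave a bound of 32.7-fold, but the remaining probe, A_51_P103718, was well above background in every line, at 2.46 and 2.61 against -1.98 and -1.23, a difference of 17.6-fold (limma adjusted p = 0.368). Such a bound sets the mean of the bright lines against the detection limit of the dim arrays, which is their lowest signal well above background, or against the signal of the probe itself if that was higher. Some signals brighter than this limit were not well above background, so each bound is approximate. The share of probes well above background ran from 52.0% to 55.5% across the 4 arrays.

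To show the DNA that the named regulators of these genes could read, the 250 bases before the transcription start were taken from RefSeq (GRCm38.p6), 5′ to 3′ on the strand of the gene. The table held 7 of the 10 genes, and Ccl2, Ccl7 and Cxcl5 were missing entries. The 5 printed here belong to genes with a wide spread between lines (Cxcl1, Ccl20 and Cx3cl1), to Cxcl10, whose direction differed from the others, and to Ccl17, which was detected in both lines of 1 genotype only. Capitals mark every match to the NF-kB motif, to the AP-1 motif TGANTCA and to the letters TATAAA of the TATA box, each searched on both strands.
Cxcl1, chr5:90890995-90891244, plus strand: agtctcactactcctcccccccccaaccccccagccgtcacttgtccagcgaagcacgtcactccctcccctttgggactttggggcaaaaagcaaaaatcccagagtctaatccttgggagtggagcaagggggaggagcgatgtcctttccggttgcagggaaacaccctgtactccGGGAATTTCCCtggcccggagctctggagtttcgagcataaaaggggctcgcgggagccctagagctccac
Ccl20, chr1:83116516-83116765, plus strand: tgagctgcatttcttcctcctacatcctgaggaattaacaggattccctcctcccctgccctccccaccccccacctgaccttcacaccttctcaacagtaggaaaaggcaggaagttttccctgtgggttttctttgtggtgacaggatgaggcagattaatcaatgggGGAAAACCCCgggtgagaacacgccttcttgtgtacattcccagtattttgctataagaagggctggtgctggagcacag
Cxcl10, chr5:92348890-92349139, minus strand: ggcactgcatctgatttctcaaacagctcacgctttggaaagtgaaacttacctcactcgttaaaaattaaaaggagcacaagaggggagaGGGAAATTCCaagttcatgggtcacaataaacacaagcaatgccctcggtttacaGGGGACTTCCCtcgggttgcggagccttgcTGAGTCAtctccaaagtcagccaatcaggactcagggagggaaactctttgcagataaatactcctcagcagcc
Cx3cl1, chr8:94771930-94772179, plus strand: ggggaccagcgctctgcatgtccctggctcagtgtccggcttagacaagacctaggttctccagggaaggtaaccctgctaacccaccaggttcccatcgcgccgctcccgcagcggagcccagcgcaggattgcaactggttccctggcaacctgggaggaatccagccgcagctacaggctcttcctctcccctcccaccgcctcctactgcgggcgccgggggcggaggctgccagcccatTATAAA
Ccl17, chr8:94810203-94810452, plus strand: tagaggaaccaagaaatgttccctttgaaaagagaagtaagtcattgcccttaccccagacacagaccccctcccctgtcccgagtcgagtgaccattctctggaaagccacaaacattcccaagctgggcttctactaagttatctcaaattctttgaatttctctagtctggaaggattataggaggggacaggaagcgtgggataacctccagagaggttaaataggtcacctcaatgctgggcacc

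The NF-kB motif was found in 3 of the 7 promoters, those of Cxcl1, Ccl20 and Cxcl10, beside 7.25% of all 32851 promoters of this length. In Cxcl1 it lay 71 to 61 bases before the start, as 2 overlapping matches on opposite strands, and in Ccl20 it lay 80 to 71 bases before the start on the minus strand. Cxcl10 held a match from 159 to 150 bases before the start and overlapping matches from 104 to 94 bases. The same promoter also had the AP-1 motif at 74 to 68 bases, which 6.75% of all promoters held. The letters TATAAA were found 32 to 27 bases before the start of Ccl8 and 6 to 1 bases before that of Cx3cl1, and in 12.4% of all promoters, with no limit on position. None of these motifs was matched in the window of Ccl17 or of Cxcl12. A match describes the letters only.

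Among the 10 chemokines, lower signal in Ip6k1-/- MEFs was the common direction. Of the 9 genes that could be tested, 7 were lower by at least 2-fold between the genotype means, namely Ccl2, Ccl7, Ccl17, Cxcl1, Cxcl5, Cxcl12 and Cx3cl1, and 0 were higher by 2-fold. Ccl17, Cxcl5 and the Cx3cl1 probe A_51_P205129 entered the tests through their Ip6k1+/+ lines alone. Over all gene names tested, 5.2% were lower and 2.53% higher by that cutoff. Cxcl10 was the 1 gene with a positive difference, and Ccl20 had a difference near 0 with a large error. The median difference of the 9 genes, Ccl17 and Cxcl5 among them, was -1.33, beside 0.04 for all 14335 gene names tested. The 10 genes were chosen with earlier results of these data known. These counts and this median therefore describe the genes and do not test whether chemokines are enriched. None passed limma after Benjamini-Hochberg adjustment across the 21573 tested probes, in which 0.014% of gene names were called and the lowest adjusted p of the 10 genes was 0.993. At an unadjusted limma p below 0.05, 3 genes were lower (Ccl2, Ccl7 and Ccl17), against 2.65% of all gene names, and Ccl17 is among them through signal that was not well above background in Ip6k1-/- lines. For 5 genes both Ip6k1-/- lines were below both Ip6k1+/+ lines on at least 1 probe, beside 15.8% of all gene names. Ccl17 counts here through background signal in both Ip6k1-/- lines. Cx3cl1 counts through A_51_P205129, which was background signal in Ip6k1-/- replicate 2, while its brighter probe overlapped between genotypes. When every array had to detect the probe, 3 of 7 genes separated in this way, beside 14.4% of all gene names. With 2 lines against 2, a two-sided exact permutation test cannot give a p below 0.333. Ccl7, Ccl17 and Cxcl5 also stand in the list of lower genes that the study drew from these same arrays, which is no independent evidence of their direction.

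These counts rest partly on single lines. Without Ip6k1+/+ replicate 1, Ccl2 came to -0.91, Ccl7 to -0.99 and -0.93 on its probes and Cxcl1 to 0.61, short of a 2-fold fall. The genes still lower by 2-fold were Ccl17, Cxcl5, Cxcl12 and Cx3cl1. Cx3cl1 stayed only through A_51_P205129, at -2.84, while its brighter probe came to -0.51. All of these but Cxcl12 rest at least in part on Ip6k1-/- signal that was not well above background. Leaving out Ip6k1-/- replicate 1 raised Cxcl10 past the 2-fold cutoff, at 1.43, and made 8 genes separate between genotypes in place of 5, while the share over all gene names went from 15.8% to 32.7%. Without Ip6k1-/- replicate 2 it was Ccl20 that passed the cutoff upward, at 2.06. When only probes well above background on all 4 arrays were kept, 7 of the 10 genes could be tested, and 5 of them were lower by 2-fold beside 3.11% of all gene names.

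**Figure D1:**
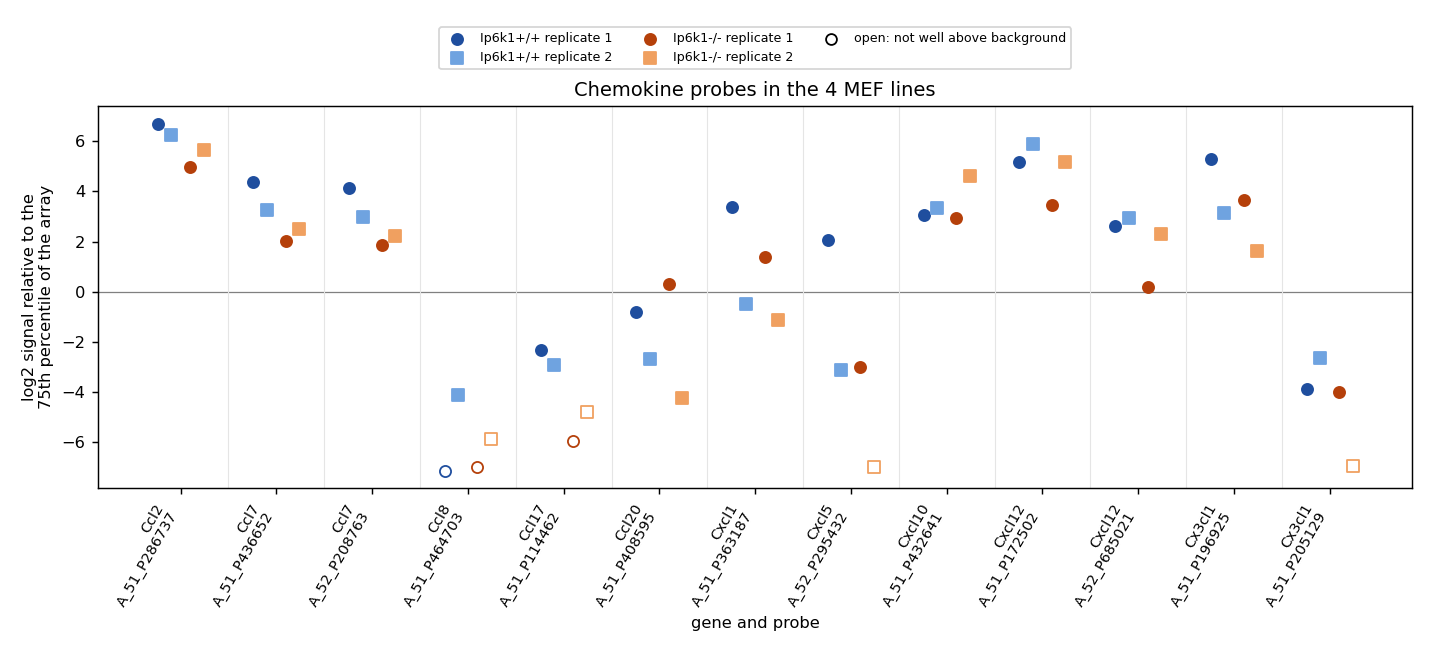
Log2 signal relative to the 75th percentile of the array (vertical axis) for each of the 13 chemokine probes (horizontal axis) in the 4 MEF lines. Each point is 1 line, blue for Ip6k1+/+ and orange for Ip6k1-/-, with a circle for replicate 1 and a square for replicate 2. Open symbols were not well above background. Ccl2, Ccl7 and Ccl17 show both orange points below both blue ones, whereas Ccl20, Cxcl1 and Cxcl5 show wide gaps between lines of 1 genotype.

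The CC chemokines Ccl2 and Ccl7 attract monocytes, chiefly through the receptor Ccr2, and lie near each other on chromosome 11. Ccl2 (probe A_51_P286737, mm9 chr11:81850650-81850709) was at 6.69 and 6.22 in Ip6k1+/+ MEFs against 4.97 and 5.65 in Ip6k1-/- MEFs. The knockout lines were both the lower ones. The difference was -1.15 (standard error 0.31, 95% interval -1.96 to -0.33, limma adjusted p = 0.993), which is 2.22-fold lower on a linear scale. This probe is spotted 10 times on each array, and the SD over spots ranged from 0.03 to 0.06, far below the gap of 0.47 between the Ip6k1+/+ lines and of 0.68 between the Ip6k1-/- lines. On the array of Ip6k1+/+ replicate 1, 5 of the 10 spots were saturated, so the value there is capped and the difference may be understated. The spots of 1 array share their RNA and labelling, so this SD does not cover those steps.

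Ccl7 had 2 probes, whose starts lie 152 bases apart and about 10.0 and 9.85 kb from that of Ccl2. On A_51_P436652 (chr11:81860656-81860715) the Ip6k1+/+ lines were at 4.37 and 3.25 and the Ip6k1-/- lines at 2.01 and 2.51. On A_52_P208763 (chr11:81860504-81860563) the values were 4.15 and 2.97 against 1.85 and 2.21. Both probes placed both Ip6k1-/- lines below both Ip6k1+/+ lines, with Ip6k1+/+ replicate 1 highest. The differences were -1.55 and -1.52, each with a standard error of 0.44 and a limma adjusted p of 0.993. The second of these probes is shown because its 60 bases run without a stop codon in 1 frame, so that it is printed here as the piece of Ccl7 transcript that was measured.
Ccl7, probe A_52_P208763: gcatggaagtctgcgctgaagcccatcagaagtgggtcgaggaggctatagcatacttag

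Ccl8, another monocyte attractant of the same cluster, lies farther out, at 79.5 kb from the Ccl2 probe (A_51_P464703, chr11:81930108-81930167). Its values were -7.14 and -4.11 in Ip6k1+/+ MEFs against -6.98 and -5.86 in Ip6k1-/- MEFs. Only Ip6k1+/+ replicate 2 was well above background. The gene was therefore not tested and no bound on its fold could be given. Hence 2 of the 3 monocyte attractants were measured in every line, and both were lower in both Ip6k1-/- lines.

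Ccl17 and Ccl20 are CC chemokines that attract lymphocytes and dendritic cells, Ccl17 through Ccr4 and Ccl20 through Ccr6. Ccl17 (A_51_P114462, chr8:97335770-97335829) was at -2.33 and -2.92 in the Ip6k1+/+ lines, both well above background, and at -5.95 and -4.78 in the Ip6k1-/- lines, neither of them well above background. The genotypes did not overlap. The gene was at least 4.25-fold higher in Ip6k1+/+ lines, and the fitted difference was -2.74 (standard error 0.53, 95% interval -4.12 to -1.35, limma adjusted p = 0.993). Since neither Ip6k1-/- value is well above background, the size of the fitted difference is uncertain. The difference was -2.09 with dim values set to the detection limit and -1.03 with normexp background correction, the latter smaller than the bound. Ccl17 entered the tests through its Ip6k1+/+ lines alone.

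Ccl20 (A_51_P408595, chr1:83115500-83115559) was well above background in every line, at -0.81 and -2.66 in Ip6k1+/+ MEFs against 0.32 and -4.24 in Ip6k1-/- MEFs. The Ip6k1-/- lines were the highest and the lowest of the 4, so the genotypes overlapped fully. Their gap of 4.56 exceeded the difference between genotype means of -0.22 (standard error 1.63, 95% interval -4.47 to 4.03, limma adjusted p = 0.994). These lines cannot show or exclude a change in Ccl20 of several fold in either direction.

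**Figure D2:**
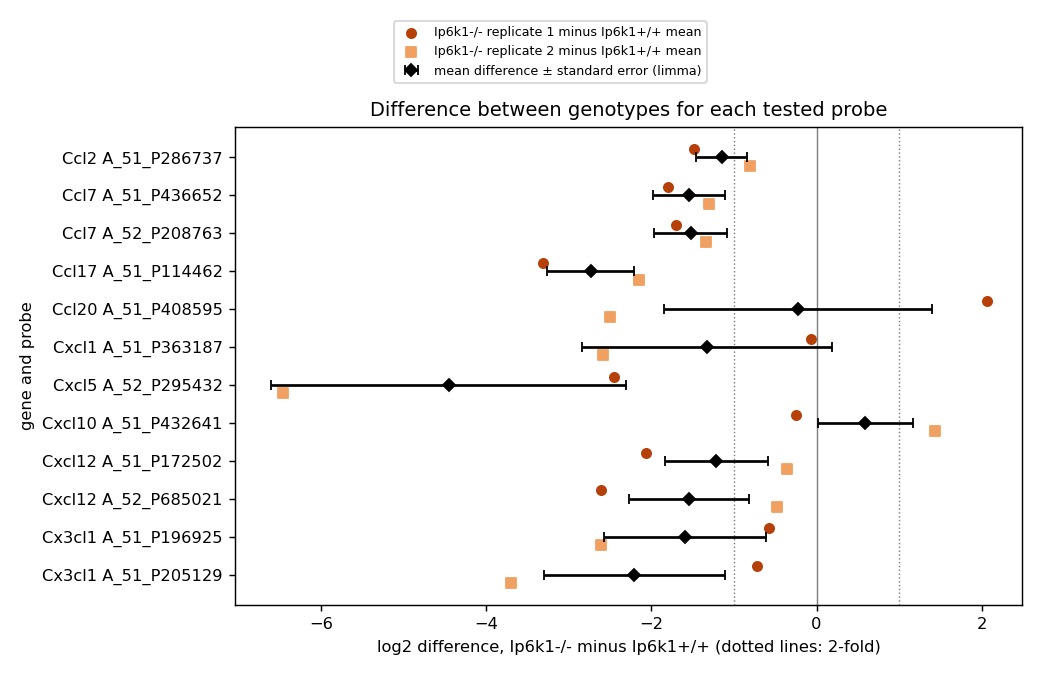
Log2 difference between Ip6k1-/- and Ip6k1+/+ MEFs (horizontal axis) for the 12 tested chemokine probes (vertical axis). Diamonds are the mean difference with its limma standard error, circles and squares are each Ip6k1-/- line minus the Ip6k1+/+ mean, and dotted lines mark 2-fold. Ccl17 in both Ip6k1-/- lines, and Cxcl5 and Cx3cl1 A_51_P205129 in replicate 2, rest on signal that was not well above background. The errors of Ccl2 and Ccl7 (0.31 to 0.44) are small beside their differences, while Ccl20 and Cxcl10 have 1 Ip6k1-/- line on each side of 0.

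Cxcl1 and Cxcl5 are CXC chemokines that draw neutrophils through the receptor Cxcr2, and both lie on chromosome 5. Cxcl1 (A_51_P363187, chr5:91321845-91321904) was at 3.39 and -0.49 in Ip6k1+/+ MEFs against 1.38 and -1.14 in Ip6k1-/- MEFs. Replicate 1 was higher than replicate 2 in both genotypes, and the Ip6k1+/+ line with the low value lay below the higher Ip6k1-/- line. The difference was -1.33 (standard error 1.52, 95% interval -5.30 to 2.64, limma adjusted p = 0.993), less than the gaps of 3.88 and 2.52 between lines of 1 genotype.

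Cxcl5 (A_52_P295432, chr5:91190205-91190264) stood at 2.06 and -3.12 in Ip6k1+/+ MEFs against -2.98 and -6.99 in Ip6k1-/- MEFs, the last of which was not well above background. The high value of Ip6k1+/+ replicate 1 set it apart, and the other Ip6k1+/+ line was level with Ip6k1-/- replicate 1. The difference was -4.46 with a standard error of 2.15 (limma adjusted p = 0.993), and it ranged from -7.05 to -1.86 when each line was left out in turn. Because 1 value is not well above background, the size of the difference depends on how dim values are treated. It came to -3.30 with dim values set to the detection limit and to -2.69 with normexp. For both neutrophil attractants the difference between genotypes was therefore within the range set by the lines themselves, and the highest line was the same one.

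Cxcl10 attracts activated T cells through Cxcr3. Its probe (A_51_P432641, chr5:92775781-92775840, minus strand) was at 3.07 and 3.32 in Ip6k1+/+ MEFs against 2.95 and 4.62 in Ip6k1-/- MEFs. One Ip6k1-/- line was the lowest and the other the highest of the 4. The difference was 0.59 (standard error 0.58, 95% interval -0.92 to 2.10, limma adjusted p = 0.993) and came from Ip6k1-/- replicate 2, since it was -0.24 without that line. The interval leaves room for no change and for a rise of over 4-fold. Its lower end, at -0.92, lies just short of a fall of 2-fold, and 2 lines per genotype cannot exclude one.

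Cxcl12, the ligand of Cxcr4 and Cxcr7 that guides stem cells and lymphocytes, had 2 probes on chromosome 6 that the array assigns to different transcripts. On A_51_P172502 (chr6:117131227-117131286) it was at 5.16 and 5.90 in Ip6k1+/+ MEFs against 3.47 and 5.16 in Ip6k1-/- MEFs. On A_52_P685021 (chr6:117124474-117124533) the values were 2.63 and 2.95 against 0.18 and 2.32. Ip6k1-/- replicate 1 was the lowest on both probes, while Ip6k1-/- replicate 2 lay at the level of Ip6k1+/+ replicate 1 on the first probe and just below both Ip6k1+/+ lines on the second. The differences were -1.21 (standard error 0.62) and -1.54 (standard error 0.73), with a limma adjusted p of 0.993 for both. Without Ip6k1-/- replicate 1 they came to -0.36 and -0.48. The lower Cxcl12 mean thus rested mainly on 1 Ip6k1-/- line.

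Cx3cl1 is the only CX3C chemokine and is made as a membrane-bound protein that holds leukocytes and is shed by the proteases Adam10 and Adam17. Its probes lie on chromosome 8, 29.6 and 39.0 kb from the Ccl17 probe. On A_51_P196925 (chr8:97306185-97306244) the Ip6k1+/+ lines were at 5.30 and 3.15 and the Ip6k1-/- lines at 3.65 and 1.62. The genotypes overlapped, with replicate 1 above replicate 2 in each. The difference was -1.59 (standard error 0.98, 95% interval -4.15 to 0.97, limma adjusted p = 0.993), and it shrank to -0.51 without Ip6k1+/+ replicate 1 and to -0.57 without Ip6k1-/- replicate 2.

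The other Cx3cl1 probe, A_51_P205129 (chr8:97296742-97296801), was at -3.89 and -2.64 in Ip6k1+/+ MEFs against -3.99 and -6.96 in Ip6k1-/- MEFs, with the last not well above background. The knockout lines were again the lower ones, but Ip6k1-/- replicate 1 by only a small margin. The difference was -2.21 (standard error 1.10, limma adjusted p = 0.993), but -1.07 with dim values set to the detection limit and -0.69, under 2-fold, with normexp. A_51_P205129 entered the tests through its Ip6k1+/+ lines alone. The probes disagreed on the order of the Ip6k1+/+ lines, since replicate 1 was the higher line on the first and the lower line on the second. The array ties them to different transcript records, and which transcripts each reports was not tested.

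The 10 genes differed widely in the spread between lines of 1 genotype, as the plot of line gaps shows. Ccl2 and Ccl7 had gaps of 0.36 to 1.18 between lines of the same genotype, all below their genotype difference, and the detected Ip6k1+/+ lines of Ccl17 were 0.59 apart. Cxcl1, Cxcl5 and Ccl20 had gaps of 1.85 to 5.19, and in each of them replicate 1 was above replicate 2 in both genotypes, as it was for Cx3cl1 on A_51_P196925 with gaps of 2.16 and 2.04. Cxcl12 and Cxcl10 had small gaps between the Ip6k1+/+ lines, from 0.26 to 0.74, and larger ones between the Ip6k1-/- lines, from 1.67 to 2.14, with replicate 2 the higher line. The replicate numbers mark separate embryos, and the labels do not say whether same-numbered lines share anything. The lines were treated as unpaired.

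**Figure D3:**
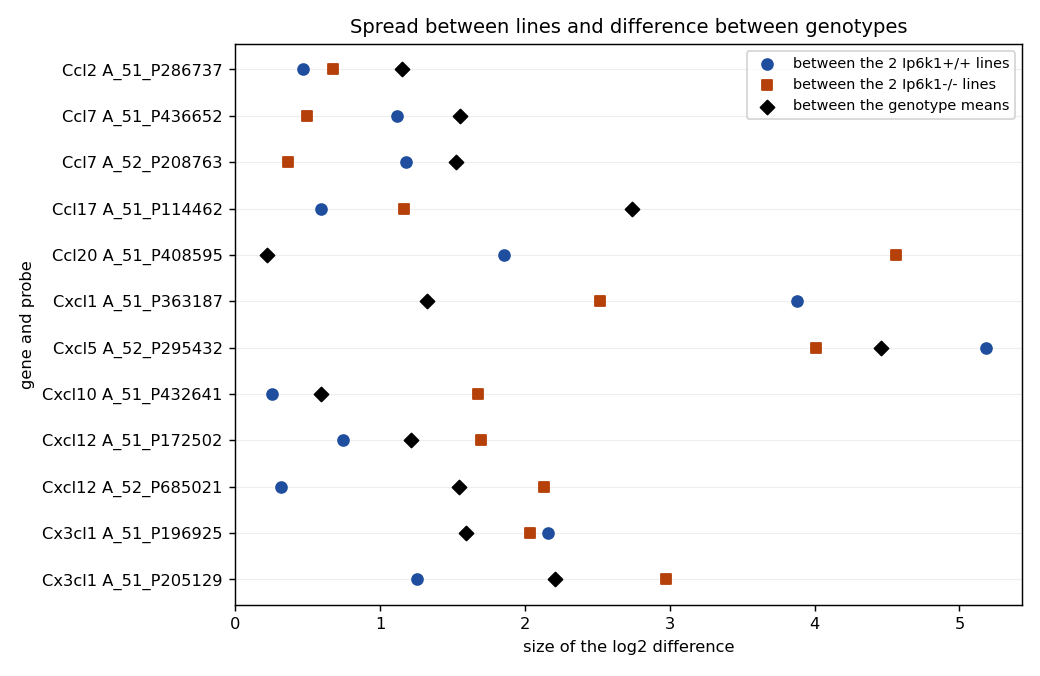
Size of the log2 difference (horizontal axis) between the 2 Ip6k1+/+ lines (blue circles), between the 2 Ip6k1-/- lines (orange squares) and between the genotype means (black diamonds) for the 12 tested chemokine probes (vertical axis). The diamond lies to the right of both other symbols for Ccl2, both Ccl7 probes and Ccl17, and between or to the left of them for the rest. Gaps of the Ip6k1-/- lines of Ccl17, Cxcl5 and Cx3cl1 A_51_P205129 include signal that was not well above background.

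Likeness between patterns was measured as the root mean square deviation of the 4 line values after each probe's mean was removed, among probes detected on all 4 arrays. Among the 10 genes, the 2 Ccl7 probes were 0.05 apart and Ccl2 was 0.31 from Ccl7, whereas Cx3cl1 was nearest to Cxcl1 at 0.65. Outside them, Egfr, the receptor for epidermal growth factor, was the nearest gene to Ccl2 at 0.07, with values of 2.98, 2.60, 1.45 and 1.97 in the order Ip6k1+/+ replicates 1 and 2 and Ip6k1-/- replicates 1 and 2. Enpp1, a phosphodiesterase of the cell surface, was nearest to Ccl20 at 0.12, with 2.19, 0.07, 3.24 and -1.19. Other nearest genes were Frmd5 for Cxcl1 (0.18), Aspn for Cx3cl1 (0.14), Nmnat3 for Cxcl12 (0.10 on A_51_P172502) and Clcn1 for Cxcl10 (0.03), and Wars2 was among the nearest for both Ccl7 probes (both 0.11). Each of these measures rests on 4 lines and describes them only.

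The other chemokines on the array had few measured members and no common direction. Of 27 other chemokines on the array, 15 were not well above background in any line, among them Ccl3, Ccl4, Ccl11 and Cxcl9, and 7 could be tested, with a median difference of 0.49. Ccl5, a T cell attractant, was well above background in every line and differed by 0.04 and 0.08 on its 2 probes. Cxcl16, a membrane-bound CXC chemokine, went the other way. It was at -1.86 and -2.54 in Ip6k1+/+ MEFs against -1.10 and -1.15 in Ip6k1-/- MEFs on A_51_P374203, higher in both Ip6k1-/- lines. The size of this was 1.07 (standard error 0.35, limma adjusted p = 0.993), beside 0.85 on its second probe. Ppbp, a platelet chemokine next to Cxcl5 on chromosome 5, was singled out after its values were seen, and its pattern resembled that of Cxcl5, with 0.25, -3.97, -2.07 and -6.82 in the same order of lines and the last not well above background. Cxcl14, named for the same reason, had line values of 2.93, -2.89, 3.79 and -2.77, a larger gap between replicates than any of the 10 genes.

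Most chemokine receptors were not detected in these cells. Of 18 receptors, 14 were not well above background in any line, including Ccr2, Ccr4, Ccr6, Cxcr3, Cx3cr1 and Cxcr2 (Il8rb on the array), the receptors of Ccl2, Ccl17, Ccl20, Cxcl10, Cx3cl1 and of Cxcl1 and Cxcl5. Cxcr4, a receptor of Cxcl12, was well above background only in Ip6k1+/+ replicate 2 (-4.70 on A_52_P585124), and Cxcr6 only in Ip6k1+/+ replicate 1 (-3.75). Ccr9 and Xcr1 could be tested and differed by 0.27 (standard error 0.77) and -0.14 (standard error 0.40). Among 5 atypical receptors, which bind chemokines without the usual G protein signal, Ccrl2 and Cxcr7 could be tested. Ccrl2 was at -3.94 and -3.68 in the Ip6k1+/+ lines on A_51_P232682 and undetected by that criterion in both knockout lines, at least 1.87-fold higher in Ip6k1+/+ lines (limma adjusted p = 0.993), and its other probe gave a bound of at least 2.00-fold. Both Ccrl2 probes entered the tests through their Ip6k1+/+ lines alone. Cxcr7, the receptor that removes Cxcl12, was named after its values were seen and stood at 2.64 and -1.84 against 0.54 and -1.89, again with replicate 1 high in both genotypes.

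Of 20 genes of the signalling that induces chemokines, 19 could be tested. Of these, 3 were lower by 2-fold and 0 higher, beside 5.2% and 2.53% of all gene names. The median difference of the signalling genes was -0.17. Il1r1, the receptor for interleukin-1, was at 2.15 and 1.04 in Ip6k1+/+ MEFs against 0.69 and 0.40 in Ip6k1-/- MEFs. Its genotypes did not overlap, and the difference was -1.05 (standard error 0.43, limma adjusted p = 0.993). Nfkb1, which encodes a subunit of NF-kB, was at 1.27 and 0.27 against -0.47 and -0.33 on A_52_P569539, a difference of -1.17 without overlap. It differed by 0.10, 0.14 and -0.51 on its other 3 probes, so its probes disagreed. The list median uses the probe at 0.10. Tlr4, the receptor for bacterial lipopolysaccharide and the other gene lower by 2-fold, differed by -1.07 with overlapping genotypes. Of 6 proteases that cut or shed chemokines, 4 could be tested, and Adam10 and Adam17 differed by 0.02 and by 0.31 and 0.37. Neither sheddase of Cx3cl1 had a negative difference. Mmp2, a matrix protease that also cuts chemokines, was singled out after its values were seen, with 3.60 and 3.05 against 3.24 and -1.04, so that 1 Ip6k1-/- line was low.

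**Figure D4:**
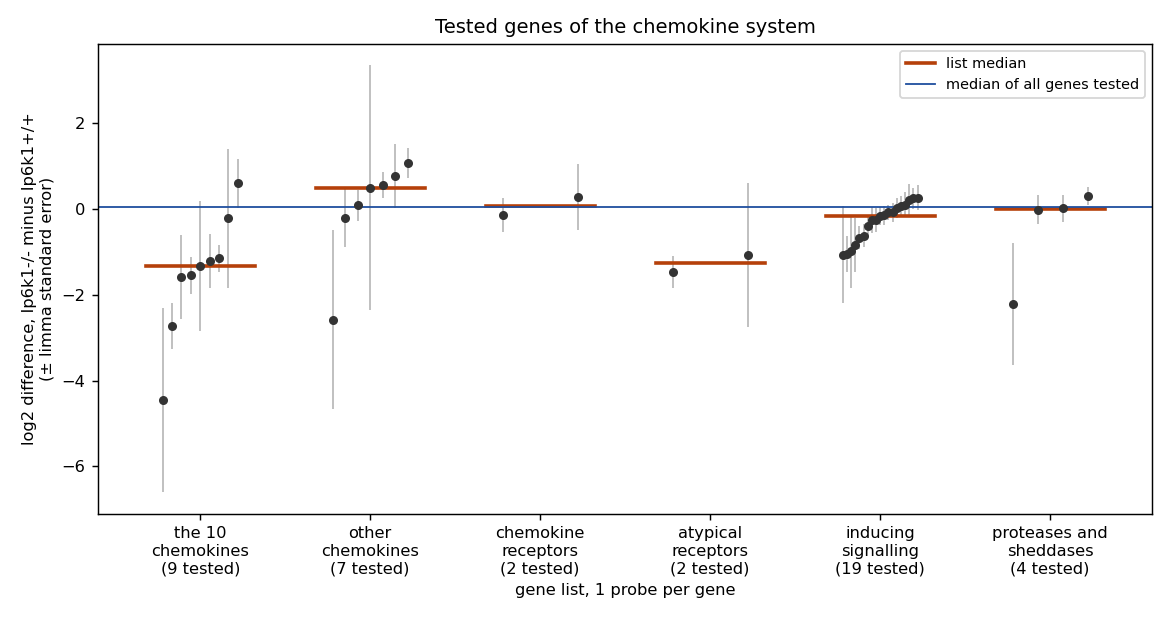
Log2 difference between Ip6k1-/- and Ip6k1+/+ MEFs (vertical axis) for the tested genes of 6 lists (horizontal axis), with 1 probe per gene. Points are genes with their limma standard error, orange bars are list medians and the blue line is the median of all genes tested (0.04). The 10 chemokines have a median of -1.33 over 9 tested genes, against 0.49 for the 7 other chemokines and -0.17 for the 19 signalling genes. The lists were chosen with earlier results of these data known, so the medians are descriptions.

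Other cell types in the cultures were looked for through marker lists, since in bulk RNA a smaller number of cells of 1 type and less RNA per cell cannot be told apart. All 10 fibroblast markers were tested. Their summed level, as a multiple of the 75th percentile, was 466.5 and 459.6 in Ip6k1+/+ MEFs against 426.8 and 396.5 in Ip6k1-/- MEFs, but Col1a1, Col1a2 and S100a4 were saturated on all 4 arrays and cap that sum. Without them the other 7 markers summed to 151 and 202.2 against 112.6 and 112, lower in both Ip6k1-/- lines. Of the 10 markers, 4 were lower by 2-fold, beside 5.2% of all gene names tested. Pdgfrb, the platelet-derived growth factor receptor of fibroblasts, differed by -1.20 (standard error 0.19, limma adjusted p = 0.798). Col3a1, a fibrillar collagen, differed by -1.25 (standard error 0.46) and Dcn, the matrix proteoglycan decorin, by -2.40 (standard error 0.82), both with a limma adjusted p of 0.993. None of them overlapped between genotypes on these probes, and none passed limma's adjusted threshold. Thy1 was the 1 marker higher by 2-fold, at 1.03 (standard error 1.59), beside 2.53% of all gene names. The 8 macrophage markers summed to 0.71 to 0.95, and 2 were tested. These were Cd14 and Cd68, well above background in every line, which differed by -0.31 and 0.68. Csf1r was well above background only in Ip6k1+/+ replicate 1 and Lyz2 only in Ip6k1+/+ replicate 2. Ptprc, Emr1, Itgam and C1qa were not well above background in any line. The 6 endothelial markers summed to 0.11 to 0.16 in Ip6k1+/+ and 0.23 to 0.41 in Ip6k1-/- lines. Pecam1, Cdh5, Tek and Emcn were not well above background in any line, and Kdr, the 1 tested, differed by 1.56 (standard error 0.55, limma adjusted p = 0.993). Each Vwf probe was well above background in 1 Ip6k1-/- line and in no Ip6k1+/+ line. The 6 epithelial markers summed to 0.75 and 3.15 against 0.51 and 1.59. Krt18 was well above background in every line and differed by -0.85 (standard error 0.98). Krt5 was well above background in both Ip6k1+/+ lines only, and Krt8 and Epcam in Ip6k1+/+ replicate 2 only. Cdh1 and Krt14 were not well above background in any line. The part of these differences in the chemokine values was not tested.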

How the data were processed

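Total RNA of 2 Ip6k1+/+ and 2 Ip6k1-/- MEF lines was measured on single-colour Agilent arrays of 60-base probes, which the authors scanned and extracted with Feature Extraction 10.5.1.1 (per the file headers), giving a background-corrected intensity and quality flags per spot. The log2 values that the authors deposited, shifted in GeneSpring by the 75th percentile, are offset from those used here by a fixed amount on each array. Probe coordinates are mm9, per the file headers. Gene names are those of the array.

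Here log2 of the deposited processed intensity minus its 75th percentile over the 43379 non-control spots was used. Outlier spots (96 to 133 per array) were left out, saturated spots kept and spots of 1 probe averaged. The 21573 of 41174 probes that both arrays of 1 or both genotypes raised well above background were fitted in limma 3.58.1 under R 4.3.3 (lmFit, then eBayes with its trend option), and p-values were Benjamini-Hochberg adjusted over all of them. The fit was tested on simulated data. A gene counted once if any probe passed. In the plot of gene lists and in list medians each gene has 1 probe, that with the highest mean. The number of arrays limits the precision. All arrays share 1 slide, so no batch was fitted.

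The 10 chemokines and the lists were chosen with earlier results of these data known. Named genes were the 10 chemokines with every probe, Ip6k1, measured chemokine receptors, genes of other lists with a 2-fold difference and no overlap, at most 5 a list, and the nearest patterns. Exceptions are stated, and Ccl5, Adam10, Adam17, Cxcr4, Cxcr6, cell type markers and genes named as not detected were added for their role. Promoters were read with Python 3.11.15. Alternatives were the filter on dim probes, normexp with an offset of 50 leaving out spots under their local background, quantile and median normalization, the deposited values, outlier spots kept, a floor, no variance trend, a replicate block, the methods' t-test and leaving out each line. Apart from the study's list of lower genes named above, the authors' own comparisons, RT-qPCR and cell assays were not used here.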

Additional observations from a re-analysis of the deposited data

How the results depend on the processing

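No chemokine gene passed limma's adjusted threshold under any of the 15 alternatives. The count at an unadjusted p below 0.05 was 3, and it ranged from 2 to 4 when each line was left out, was 7 with the replicate number as a block (10.4% of all gene names) and 0 by the methods' t-test (5.42%). The replicate numbers share no source in the labels. Deviations of same-numbered lines correlated at 0.48 over the tested probes, with 2 pairs only, and no chemokine passed the adjusted threshold under the block. Genes lower by 2-fold numbered 7, with a range of 4 to 8 over lines left out, and genes higher by 2-fold 0, with a range of 0 to 1. Genes whose genotypes did not overlap numbered 5, ranged from 5 to 8 over lines left out (31.6% to 38.7% of all gene names, against 15.8%) and were 3 when every array had to be well above background (14.4%). The sign of 3 genes turned: Ccl20 came to 0.17 with normexp and ranged from -2.50 to 2.06 over lines left out (0.70 without Ip6k1+/+ replicate 1), Cxcl1 from -3.27 to 0.61, and Cxcl10 from -0.24 to 1.43. Of the other values for single probes, 94 changed in size and kept their direction, and 66 came from alternatives that left the difference as it was. With no filter on dim probes the median over all probes went from 0.05 to 0.19 and the share of lower among 2-fold calls from 67.3% to 53.5%. The normexp fit gave a share of 76.4%, and leaving out a line gave 56.4% to 61.6%. Dim probes limit Ccl8, Ccl17, Cxcl5 and the second Cx3cl1 probe, and saturation limits Ccl2 on 1 array.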
